A study of Saccharomyces cerevisiae with 12 samples.

Results

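The genes of arginine synthesis and breakdown in budding yeast, Saccharomyces cerevisiae, were followed across 4 strain groups of 3 arrays each. The 9 genes were listed by pathway: ARG2, ARG5,6, ARG8, ARG3, CPA1, ARG1 and ARG4 for synthesis, CAR1 and CAR2 for breakdown. For each gene the probe set with the highest mean was to be taken, and each of the genes found had a single probe set. The pathway was chosen by the measured log2 differences of the ada2 comparison with wild type, where ARG3 and ARG1 were known to be among the largest, so that comparison is described for these genes without a test. Of the 9 genes, 8 were named on the array and are described here among 5449 genes measured. ARG5,6 was not analysed here. All 8 stood above the background of the array on every array, with a lowest log2 intensity of 8.78 against a background of 5.62, so none entered through a filter on low values.

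The groups were a strain without NUP60 (nup60Δ::KANR), a strain without ADA2 (ada2Δ::KANR), a strain labelled as lacking both (nup60Δ::KANR ada2Δ::KANR), and wild type. All are labelled MATa his3 leu2 met15 ura3, and all were grown in rich medium (YEPD) at 30 °C to mid-log phase. Every group was represented by a single genotype with 3 biological replicates, so a deletion and anything else that sets its strain apart cannot be told apart, and p-values measure the spread between replicates of single strains. The NUP60 protein sits in the nuclear basket, the filaments on the inner face of the nuclear pore. ADA2 encodes a subunit of the histone acetyltransferase module of the coactivator complex SAGA.

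Arginine is made from glutamate. In the mitochondrion, acetylated intermediates lead to ornithine, which is carried to the cytosol and joined with carbamoyl phosphate, and the product is turned into arginine in the last steps. When arginine is plentiful, a complex of Arg80, Arg81 and Mcm1, with Arg82, holds the synthesis genes down and turns the breakdown genes CAR1 and CAR2 on, while Gcn4 activates the synthesis genes during amino acid starvation. Earlier genetic work described SAGA components as needed to keep ARG1 low in rich medium.

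The deleted genes were low wherever the labels name them. NUP60 averaged 6.37 in nup60 arrays and 6.20 in arrays labelled nup60 ada2, against 12.53 in wild type, and ADA2 averaged 4.23 in ada2 arrays and 4.39 in arrays labelled nup60 ada2, against 10.95 in wild type. Other transcripts went against the label of the double deletion. All 5 markers of alpha cells were high there, with a summed intensity of 61181 to 73407, against 1994 to 2155 in nup60 arrays, 1688 to 1813 in ada2 arrays and 1563 to 1831 in wild type. The 7 markers of a cells summed to 9832 to 9857 there, against 76376 to 85480 in nup60 arrays, 35628 to 39267 in ada2 arrays and 68867 to 72899 in wild type, and the a1 gene HMRA1 was below background (4.38). In the other 3 groups the alpha genes MF(ALPHA)1 and HMLALPHA1 were below background. Of the labelled markers, HIS3 averaged between 12.42 and 12.53 in all 4 groups, though all are labelled his3, and the reason was not tested. LEU2 averaged between 6.14 and 6.70. URA3 averaged 12.77 in the arrays of the labelled double deletion and was below background elsewhere. They are therefore called the arrays labelled nup60 ada2, and in each comparison with them the deletions, the mating type and URA3 cannot be told apart. Levels are log2 intensities of bulk RNA, in which fewer cells of a kind and less RNA per cell cannot be told apart.

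**Figure D1:**
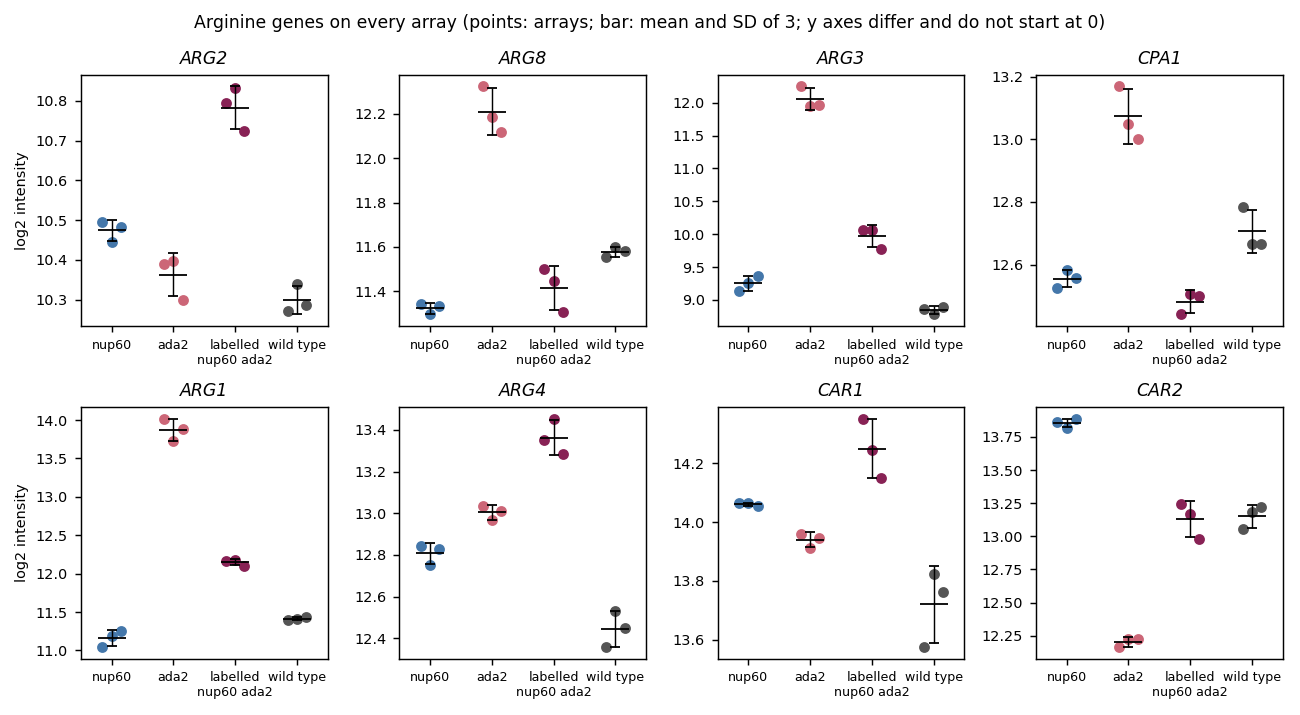
Log2 intensity (y axis, a scale of its own in each panel) of the 8 arginine genes by strain group (x axis); points are the 3 arrays of a group, and the bar with whiskers is their mean and SD. ARG3 and ARG1 stand highest in the ada2 arrays, at means of 12.06 and 13.87, and CAR2 stands lowest there, at 12.20.

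The comparison of ada2 with wild type shows levels without the acetyltransferase subunit. ARG3 and ARG1 lay far above wild type, ARG8, ARG4 and CPA1 lay above it by less, and CAR2 lay below it. ARG3 encodes ornithine carbamoyltransferase, which joins ornithine and carbamoyl phosphate. Its log2 intensity was 12.25, 11.95 and 11.97 on the ada2 arrays, against 8.86, 8.78 and 8.89 on the wild-type arrays. The ada2 arrays were all higher and the groups were far apart, with a difference of 3.21 ± 0.10 (standard error, n = 3 arrays per group), or 9.27-fold. Only 3 of 5449 genes had a larger absolute difference in this comparison. The pathway was chosen by these differences, so the rank is no test.

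ARG1, the gene of argininosuccinate synthetase in the next step, was at 14.01, 13.73 and 13.88 on the ada2 arrays, against 11.39, 11.42 and 11.43 on the wild-type arrays. The groups did not overlap, and the difference was 2.46 ± 0.07, or 5.51-fold. ARG4 encodes argininosuccinate lyase, which releases arginine in the last step. Its levels were 13.04, 12.97 and 13.01 on the ada2 arrays, against 12.36, 12.53 and 12.45 in wild type, a difference of 0.56 ± 0.06. The gene of the last step thus lay closer to its wild-type level than the genes of both steps before it.

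Upstream of ornithine, ARG8 encodes acetylornithine aminotransferase. It was at 12.33, 12.18 and 12.12 on the ada2 arrays, against 11.55, 11.60 and 11.58 in wild type (difference 0.63 ± 0.06). ARG2 encodes acetylglutamate synthase, which opens the pathway. It was at 10.39, 10.40 and 10.30 on the ada2 arrays, against 10.27, 10.34 and 10.29 in wild type. ARG2 was the gene whose ada2 and wild-type arrays overlapped, with a difference of 0.06 ± 0.04.

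CPA1 encodes the small subunit of the carbamoyl phosphate synthetase of this pathway. It was at 13.17, 13.05 and 13.00 on the ada2 arrays, against 12.78, 12.67 and 12.67 in wild type (difference 0.37 ± 0.05). The messenger of CPA1 begins with a short reading frame, YOR302W, whose peptide stalls ribosomes when arginine is plentiful, and the array has a probe set for it. YOR302W was at 11.91, 11.77 and 11.68 on the ada2 arrays, against 10.83, 11.07 and 11.01 in wild type, a difference of 0.81 ± 0.09 in the same direction. YOR302W was named, with all chromosomal neighbours of the listed genes, after the files had been opened.

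The breakdown genes lay on opposite sides of wild type. CAR1 encodes arginase, which splits arginine into ornithine and urea. It was at 13.96, 13.91 and 13.95 on the ada2 arrays, against 13.57, 13.82 and 13.76 in wild type, so the ada2 arrays were higher by 0.22 ± 0.06. CAR2 encodes ornithine transaminase, which turns ornithine toward proline. It was at 12.16, 12.22 and 12.22 on the ada2 arrays, against 13.06, 13.19 and 13.22 in wild type. CAR2 was lower on every ada2 array, by a difference of -0.95 ± 0.06.

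In this comparison 6 of the 8 genes had all ada2 arrays above all wild-type arrays and 1, CAR2, had all below. Over all genes 56.8% had groups that did not overlap, and 45.7% passed the test used for the other comparisons, a limma adjusted p below 0.05. The median difference of the 8 genes was 0.46, and that of all genes was -0.01. The genes were listed with this comparison known, so their counts and median beside those of all genes are no test. With quantile normalization the ARG3 difference was 3.05.

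The comparison of nup60 with wild type shows levels without the nuclear basket protein. All 8 genes passed, 5 higher and 3 lower, where 51.3% of all genes passed, 25.1% higher and 26.2% lower. All 8 also had groups that did not overlap, as did 63.9% of all genes. The differences were small, none reaching 2-fold, with a median absolute log2 difference of 0.30 for the 8 genes and 0.17 for all genes. The wild-type arrays of this comparison are those of the ada2 comparison with which the genes were listed.

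CAR2 rose most among the 8. Its log2 intensity was 13.86, 13.82 and 13.88 on the nup60 arrays, against 13.06, 13.19 and 13.22 in wild type (difference 0.70 ± 0.06, limma adjusted p = 9.86e-06). CAR1 rose as well, to 14.06, 14.06 and 14.05 in nup60 arrays (difference 0.34 ± 0.06, limma adjusted p = 0.00132). Both steps of arginine breakdown were thus higher on every nup60 array than on any wild-type array.

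On the synthesis side the genes went both ways. ARG4 rose by 0.36 ± 0.06 (limma adjusted p = 3.02e-04), with 12.84, 12.75 and 12.83 on the nup60 arrays. ARG3 was at 9.14, 9.26 and 9.37 on the nup60 arrays and rose by 0.41 ± 0.10 (limma adjusted p = 0.00547). ARG2 rose by 0.18 ± 0.04, with 10.50, 10.45 and 10.48 on the nup60 arrays. These genes act at the start, the middle and the end of the pathway.

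ARG8, CPA1 and ARG1 fell. ARG8 was at 11.34, 11.30 and 11.33 on the nup60 arrays and fell by 0.25 on the log2 scale (standard error 0.06, limma adjusted p = 0.00464). ARG1 was at 11.04, 11.19 and 11.25 and had a difference of -0.25 ± 0.07 (limma adjusted p = 0.0119). CPA1 was at 12.53, 12.58 and 12.56 and had a difference of -0.15 ± 0.05 (limma adjusted p = 0.027).

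Calls were lost for ARG3 with quantile normalization (0.22, adjusted p = 0.121) and for ARG1 without nup60 array 1 (-0.19, adjusted p = 0.053). The CPA1 call was lost with quantile normalization (-0.13, adjusted p = 0.0505), without wild-type array 1 (-0.11, adjusted p = 0.083), without nup60 array 1 (adjusted p = 0.087) and without nup60 array 3 (adjusted p = 0.0649).

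**Figure D2:**
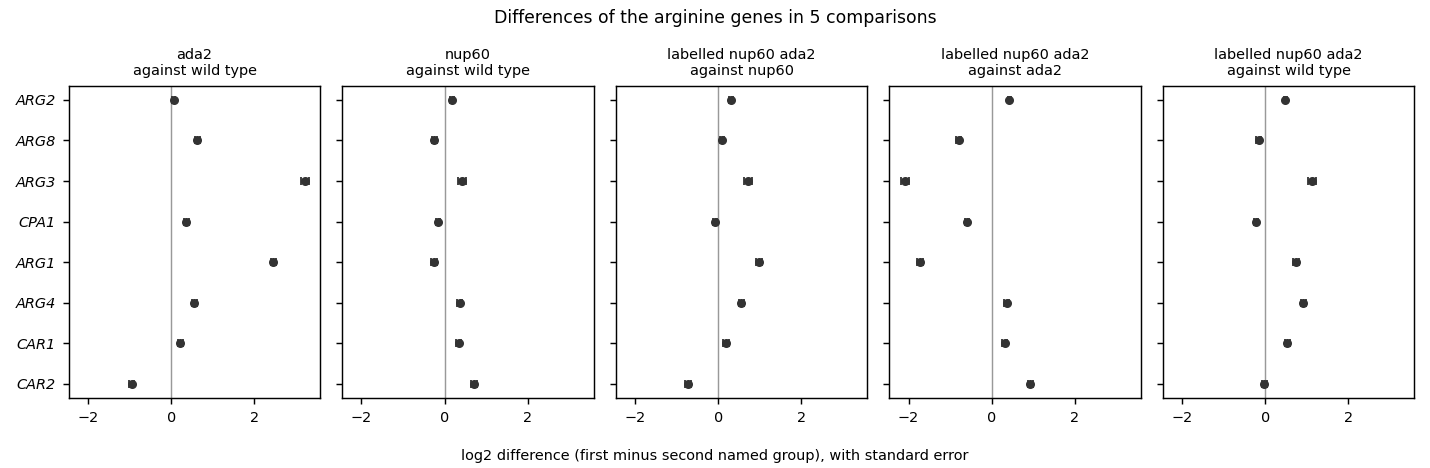
Log2 difference (x axis, first named group minus the second, with limma standard errors) of each arginine gene (rows) in 5 comparisons (panels); ada2 against wild type is shown without a test. ARG3 and ARG1 lie far to the right in the ada2 panel and far to the left, at -2.09 and -1.72, where the arrays labelled nup60 ada2 are set against ada2.

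The arrays labelled nup60 ada2 and the nup60 arrays are 6 arrays outside the ada2 comparison with wild type. Set against each other, they differ by the labelled loss of ADA2 and also by mating type and URA3. Here 6 of 8 genes passed, 5 higher and 1 lower, where 63.7% of all genes passed, 33.1% higher and 30.6% lower. The groups did not overlap for 5 genes that were higher and 2 that were lower, and for 71.9% of all genes. The 6 differences that passed had the same sign as in ada2 against wild type, the comparison with which the genes were listed. There the ARG2 arrays overlapped (0.06 ± 0.04). The differences of ARG3 and ARG1 were smaller than in ada2 against wild type. Of the genes that did not pass, ARG8 kept its sign and CPA1 did not (-0.07, against 0.37 in ada2).

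ARG1 was at 12.17, 12.18 and 12.10 on the arrays labelled nup60 ada2, against 11.04, 11.19 and 11.25 on the nup60 arrays. The groups were well apart, and ARG1 rose by 0.99 ± 0.07, or 1.98-fold (limma adjusted p = 7.13e-07). ARG3 was at 10.07, 10.06 and 9.78 on the arrays labelled nup60 ada2, against 9.14, 9.26 and 9.37 on the nup60 arrays, and rose by 0.71 ± 0.10 (limma adjusted p = 9.54e-05). ARG4 was at 13.35, 13.45 and 13.29 on the arrays labelled nup60 ada2, against 12.84, 12.75 and 12.83 on the nup60 arrays, and rose by 0.56 ± 0.06 over nup60 (limma adjusted p = 7.81e-06). ARG2, at 10.79, 10.83 and 10.72 on the arrays labelled nup60 ada2, rose by 0.31 ± 0.04.

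CAR2 was the gene that fell. It was at 13.24, 13.17 and 12.98 on the arrays labelled nup60 ada2, against 13.86, 13.82 and 13.88 on the nup60 arrays (difference -0.73 ± 0.06, limma adjusted p = 3.96e-06). CAR1 was at 14.35, 14.25 and 14.15 on the arrays labelled nup60 ada2 and rose by 0.19 ± 0.06 (limma adjusted p = 0.0242). ARG8, at 11.50, 11.44 and 11.31 on the arrays labelled nup60 ada2, against 11.34, 11.30 and 11.33 on the nup60 arrays, overlapped and did not pass (0.09 ± 0.06, adjusted p = 0.191). CPA1, at 12.44, 12.51 and 12.50 on the arrays labelled nup60 ada2, against 12.53, 12.58 and 12.56 on the nup60 arrays, did not overlap and did not pass either (-0.07 ± 0.05, adjusted p = 0.221).

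The CAR1 call was lost after centring each array on its median (0.17, adjusted p = 0.0612) and without any of nup60 arrays 1, 2 and 3 or of arrays 1 and 2 labelled nup60 ada2, with adjusted p from 0.0527 to 0.0948. ARG8 passed without array 3 labelled nup60 ada2 (0.15, adjusted p = 0.0393) and with array weights (0.12, adjusted p = 0.0144).

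Against ada2, the arrays labelled nup60 ada2 differ by the labelled loss of NUP60 and also by mating type and URA3. This comparison shares the ada2 group with the one used to list the genes. All 8 genes passed, 4 higher and 4 lower, where 69.1% of all genes passed, 35.2% higher and 33.9% lower. All 8 had groups that did not overlap, as did 74.5% of all genes. The 4 that fell, ARG8, CPA1, ARG3 and ARG1, act between the first and the last step of the pathway, and the 4 that rose were ARG2, ARG4 and both breakdown genes. ARG3 fell, to 10.07, 10.06 and 9.78 on the arrays labelled nup60 ada2 against 12.25, 11.95 and 11.97 on the ada2 arrays, a difference of -2.09 ± 0.10, or 4.25-fold lower (limma adjusted p = 1.82e-08). ARG1 fell by 1.72 on the log2 scale (standard error 0.07, limma adjusted p = 5.60e-09), with 12.17, 12.18 and 12.10 on the arrays labelled nup60 ada2, against 13.73 to 14.01 on the ada2 arrays.

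ARG8 and CPA1 fell in the same comparison. Their differences were -0.79 ± 0.06 (limma adjusted p = 5.65e-07) and -0.59 ± 0.05 (limma adjusted p = 1.47e-06). YOR302W, the reading frame at the start of the CPA1 messenger, was at 10.93, 11.01 and 10.72 on the arrays labelled nup60 ada2, against 11.91, 11.77 and 11.68 on the ada2 arrays (difference -0.90 ± 0.09, limma adjusted p = 3.76e-06). Both probe sets of this messenger were thus lower on every array labelled nup60 ada2.

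CAR2 rose by 0.93 ± 0.06 (limma adjusted p = 3.70e-07), with 13.24, 13.17 and 12.98 on the arrays labelled nup60 ada2, against 12.16 to 12.22 on the ada2 arrays. ARG2 rose by 0.42 ± 0.04, ARG4 by 0.36 ± 0.06 and CAR1 by 0.31 ± 0.06. None of these 8 calls was lost under any alternative tried.

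Against wild type, the arrays labelled nup60 ada2 had 7 of 8 genes past the test, 5 higher and 2 lower, where 73.2% of all genes passed, 36.1% higher and 37.1% lower. Groups did not overlap for these 7 genes, and for 70.3% of all genes. ARG3 rose by 1.12 ± 0.10, or 2.18-fold (limma adjusted p = 1.40e-06), and was the only one of the 8 past 2-fold, where 9.73% of all genes were. Over the alternatives the ARG3 difference ran from 0.85 to 1.23, so its lowest value lay under 2-fold. ARG4 rose by 0.92 ± 0.06 (limma adjusted p = 6.02e-08), ARG1 by 0.74 ± 0.07, CAR1 by 0.53 ± 0.06 and ARG2 by 0.48 ± 0.04. CPA1 fell by 0.22 on the log2 scale (standard error 0.05, limma adjusted p = 0.00187) and ARG8 by 0.16 (standard error 0.06, limma adjusted p = 0.0291).

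CAR2 overlapped between these groups, at 12.98 to 13.24 on the arrays labelled nup60 ada2 and 13.06 to 13.22 in wild type, and did not pass (-0.02 ± 0.06, adjusted p = 0.752). The ARG8 call was lost without array 3 labelled nup60 ada2 (-0.11, adjusted p = 0.108), without wild-type array 2 (adjusted p = 0.0756) or array 3 (0.0643), and with only the groups compared (0.0562).

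**Figure D3:**
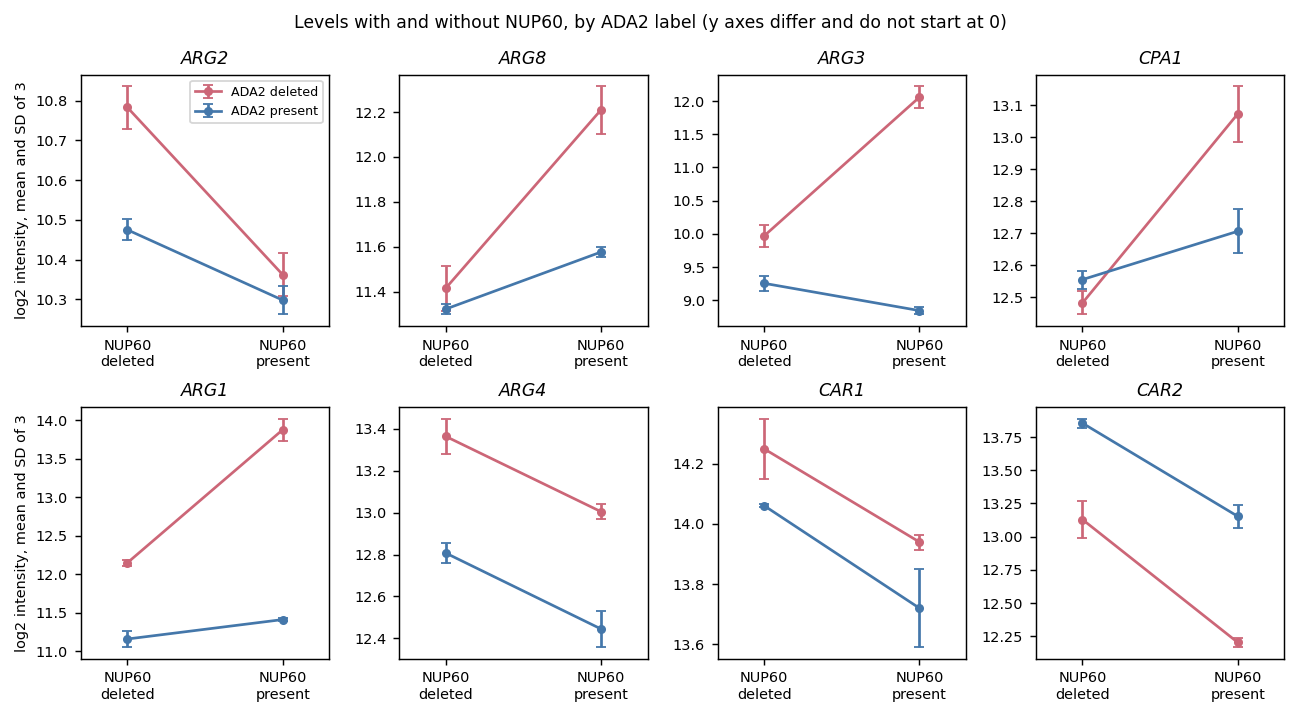
Mean log2 intensity with SD over 3 arrays (y axis, a scale of its own in each panel) where NUP60 is deleted or present (x axis), with 1 line for groups without ADA2 and 1 for groups with it. The lines of ARG4 and CAR1 run nearly parallel, whereas ARG3 without ADA2 stands at 9.97 where NUP60 is deleted and at 12.06 where it is present.

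With 4 groups, the level under both labelled deletions can be set beside the sum of the single differences. This sum holds the comparison with which the genes were listed, so the departures are values without a test. ARG3 would stand at 12.47 under the sum and was measured at 9.97, a departure of -2.50 ± 0.14. ARG1 departed by -1.47 ± 0.10, ARG8 by -0.54 ± 0.08 and CPA1 by -0.44 ± 0.07. These are the genes that stood above wild type in ada2 arrays and below their ada2 level in the arrays labelled nup60 ada2.

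The remaining genes lay closer to the sum. ARG4 would stand at 13.37 and was measured at 13.36, a departure of -0.003 ± 0.08. CAR1 departed by -0.03 ± 0.09, CAR2 by 0.22 ± 0.09 and ARG2 by 0.24 ± 0.06. The median departure over the 8 genes was -0.24.

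The order of the groups therefore differed from gene to gene. ARG3 and ARG1 were both highest in ada2 arrays and second in the arrays labelled nup60 ada2. Of the remaining groups, nup60 stood above wild type for ARG3 and below it for ARG1. For ARG8 and CPA1 the order was ada2, wild type, then nup60 and the arrays labelled nup60 ada2, which as neighbours in the order did not pass the test against each other. ARG4 was highest in the arrays labelled nup60 ada2, followed by ada2, nup60 and wild type. CAR1 had the order labelled nup60 ada2, nup60, ada2 and wild type, and ARG2 had the same order with ada2 and wild type overlapping. CAR2 was highest in nup60 and lowest in ada2, with the arrays labelled nup60 ada2 and wild type overlapping between them.

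The other genes of the pathway and its transport were read beside the list. ARG7, whose enzyme returns the acetyl group to the start of the ornithine cycle, stood highest in ada2 arrays, as ARG8 did. It rose by 0.67 ± 0.06 in ada2 arrays (limma adjusted p = 6.45e-06) and by 0.53 ± 0.06 in the arrays labelled nup60 ada2 over nup60. In the arrays labelled nup60 ada2 it stayed 0.47 ± 0.06 above wild type, where ARG8 was lower than in wild type. Of the 5 measured genes, 2 rose in nup60, 2 rose and 1 fell in ada2, and 2 rose and 1 fell in the arrays labelled nup60 ada2 against wild type, where 51.3%, 45.7% and 73.2% of all genes passed. ORT1, which carries ornithine out of the mitochondrion, fell by 0.32 on the log2 scale in the arrays labelled nup60 ada2 against wild type (standard error 0.07, limma adjusted p = 0.00136).

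Among permeases, the general amino acid permease gene GAP1 rose in every comparison. It was at 10.40, 10.45 and 10.46 on the nup60 arrays, 10.40, 10.18 and 10.29 on the ada2 arrays and 11.83, 11.88 and 11.53 on the arrays labelled nup60 ada2, against 9.37, 9.56 and 9.63 on the wild-type arrays. Both single deletions lay close together above wild type, and the arrays labelled nup60 ada2 lay above all. Its differences from wild type were 0.92 ± 0.10 in nup60, 0.77 ± 0.10 in ada2 and 2.23 ± 0.10 in the arrays labelled nup60 ada2 (limma adjusted p = 2.37e-05, 9.02e-05 and 5.17e-09). The arginine permease gene CAN1 averaged 11.95 in nup60, 11.82 in ada2, 11.97 in the arrays labelled nup60 ada2 and 11.90 in wild type. ALP1, a related basic amino acid permease gene, had the order of CAR2, with means of 8.34 in nup60, 7.25 in ada2, 7.78 in the arrays labelled nup60 ada2 and 7.91 in wild type. It rose by 0.43 ± 0.09 in nup60 (limma adjusted p = 0.00184), a call lost with quantile normalization (0.13, adjusted p = 0.282), and fell by 0.66 on the log2 scale in ada2 (standard error 0.09, limma adjusted p = 1.03e-04).

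**Figure D4:**
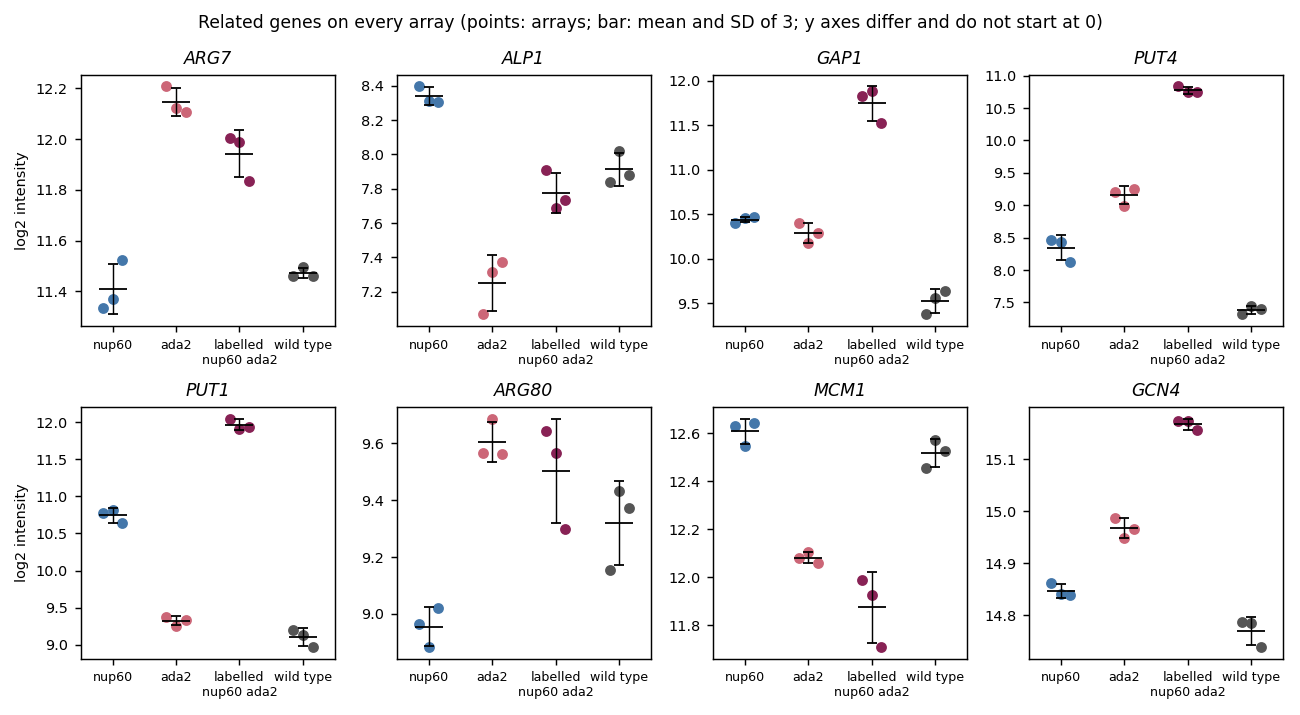
Log2 intensity (y axis, a scale of its own in each panel) of 8 related genes by strain group (x axis), with points for arrays and mean and SD over 3 arrays. GAP1, PUT4 and PUT1 are highest in the arrays labelled nup60 ada2, at means of 11.75, 10.78 and 11.96, and MCM1 is lowest there, at 11.88.

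Of the 7 regulator genes, 2 rose and 2 fell in nup60 arrays, 3 rose and 2 fell in ada2 arrays, and 3 rose and 1 fell in the arrays labelled nup60 ada2 against wild type. These counts lie near or below the shares of all genes that passed in nup60 and in the arrays labelled nup60 ada2, 51.3% and 73.2%, and above the 45.7% in ada2. MCM1, the shared partner of the arginine repressor, fell by 0.44 on the log2 scale in ada2 (standard error 0.07, limma adjusted p = 3.01e-04) and by 0.64 in the arrays labelled nup60 ada2 against wild type (standard error 0.07, limma adjusted p = 4.70e-06). MCM1 also serves the genes of both mating types, and its part in the arginine genes was not tested. ARG80, which encodes an arginine-responsive partner of Mcm1, fell by 0.36 on the log2 scale in nup60 (standard error 0.09, limma adjusted p = 0.0078) and rose by 0.55 ± 0.09 in the arrays labelled nup60 ada2 over nup60. ARG82, an inositol polyphosphate kinase of the same control, rose by 0.48 ± 0.05 in nup60 (limma adjusted p = 3.57e-05).

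GCN4, the activator of amino acid synthesis genes, rose by 0.20 ± 0.03 in ada2 (limma adjusted p = 2.79e-04) and by 0.40 ± 0.03 in the arrays labelled nup60 ada2 against wild type (limma adjusted p = 3.19e-07). Its messenger is controlled at translation, which arrays do not read. GCN2, the kinase that senses uncharged transfer RNA, fell by 0.24 on the log2 scale in nup60 (standard error 0.06, limma adjusted p = 0.00694). In ada2 the calls of ARG80 (0.29), ARG81 (-0.49) and UME6 (0.13), a repressor of CAR1, were each lost when 1 array was left out, for example without ada2 array 3 (adjusted p = 0.0504, 0.0631 and 0.14). Without wild-type array 1 the ARG81 difference was -0.28 (limma adjusted p = 0.00963). In nup60 the GCN4 call (0.08, adjusted p = 0.0469) was lost without any 1 of the nup60 arrays (adjusted p from 0.0908 to 0.137).

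Gcn4 targets of other amino acid pathways were counted as a setting for the arginine genes, from 43 genes. In ada2 arrays 19 rose and 9 fell, with a median difference of 0.09, where 22.7% of all genes rose and 23.0% fell. In nup60 arrays 4 rose and 21 fell (median -0.16), where 25.1% of all genes rose and 26.2% fell. In the arrays labelled nup60 ada2 against ada2, 5 rose and 27 fell (median -0.21), where 35.2% of all genes rose and 33.9% fell. The largest rise among them in nup60 was that of PCL5, a cyclin that marks Gcn4 for breakdown, by 0.68 ± 0.04 (limma adjusted p = 1.85e-07). PCL5 also rose in ada2 (0.935) and in the arrays labelled nup60 ada2 against wild type (1.114). In the latter comparison 8 of the 43 genes rose and 25 fell (median -0.175), where 36.1% of all genes rose and 37.1% fell. The largest difference of the list was a fall in both comparisons, that of LEU9 (-1.30 and -1.52). The largest fall in nup60 was that of LYS4, with a difference of -0.54 ± 0.05.

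Downstream of CAR2, proline is burned by PUT1 and PUT2 and taken up by PUT4. PUT1, which encodes proline oxidase, averaged 10.74 in nup60, 9.32 in ada2 and 11.96 in the arrays labelled nup60 ada2, against 9.10 in wild type. It rose by 1.64 ± 0.07 in nup60 (limma adjusted p = 1.76e-08) and by 2.86 ± 0.07 in the arrays labelled nup60 ada2 against wild type (limma adjusted p = 6.05e-11). PUT4 averaged 8.34 in nup60, 9.15 in ada2 and 10.78 in the arrays labelled nup60 ada2, against 7.39 in wild type, with a rise of 1.76 ± 0.09 in ada2 (limma adjusted p = 1.36e-07). So CAR2 was lower in ada2 arrays than in wild type, whereas PUT4 was higher there. Of 6 measured genes of proline and urea breakdown, 4 rose in nup60, 2 rose and 1 fell in ada2, and 5 rose in the arrays labelled nup60 ada2 against wild type. Of all genes, 25.1%, 22.7% and 36.1% rose in these comparisons, and 23.0% fell in ada2. In ada2 the calls of PUT1 (0.22) and PUT2 (-0.15) were each lost when 1 array was left out, for example without ada2 array 1 (adjusted p = 0.079 and 0.0912).

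The branches to proline and polyamines were counted next. Of 6 genes of proline and polyamine synthesis, 4 fell in each comparison other than that of the arrays labelled nup60 ada2 with wild type, where 6 fell. Between 23.0% and 37.1% of all genes fell in these comparisons. SPE3, the spermidine synthase gene, fell by 0.25 on the log2 scale in nup60 (standard error 0.04) and by 0.49 in ada2 (standard error 0.04, limma adjusted p = 7.53e-06). PRO1 and PRO2, for the first steps from glutamate to proline, fell by 0.31 each in nup60 (standard errors 0.03 and 0.05).

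Of 7 genes that supply glutamate and its carbon, 4 rose and 1 fell in nup60, where 25.1% of all genes rose and 26.2% fell. In ada2 3 rose and 3 fell, where 22.7% of all genes rose and 23.0% fell. In the arrays labelled nup60 ada2, 5 rose against nup60, where 33.1% of all genes rose. Against ada2 6 rose and 1 fell, where 35.2% of all genes rose and 33.9% fell. Against wild type 5 rose and 1 fell, where 36.1% of all genes rose and 37.1% fell. GDH1, the main glutamate dehydrogenase gene for ammonia assimilation, fell by 0.69 on the log2 scale in ada2 (standard error 0.05, limma adjusted p = 1.08e-06) and stood 1.19 ± 0.05 higher in the arrays labelled nup60 ada2 than in ada2 (limma adjusted p = 5.45e-09). GLT1, for glutamate synthase, fell in both single deletions, by 0.51 in nup60 and 0.66 in ada2 on the log2 scale (standard error 0.08 each).

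Pyrimidine synthesis draws on carbamoyl phosphate as well, and its genes were counted without URA3. Of 9 genes, 1 rose and 4 fell in nup60, 3 rose and 2 fell in ada2, and 1 rose and 5 fell in the arrays labelled nup60 ada2 against wild type. Over all genes, 25.1% rose and 26.2% fell in nup60, and 22.7% rose and 23.0% fell in ada2. The shares for the arrays labelled nup60 ada2 against wild type were 36.1% and 37.1%. In those arrays against ada2, 1 of the 9 genes rose and 6 fell, where 35.2% of all genes rose and 33.9% fell. URA2, whose protein makes carbamoyl phosphate for pyrimidines, rose by 0.51 ± 0.06 in ada2 (limma adjusted p = 8.66e-05). URA10, a minor orotate phosphoribosyltransferase gene, rose by 1.27 ± 0.06 in the arrays labelled nup60 ada2 against wild type, the group in which URA3 was also high.

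Genes under nitrogen catabolite repression, which holds CAR1 down on rich nitrogen sources, were counted from 19 genes. In nup60 9 rose and 1 fell, in ada2 7 rose and 3 fell, and in the arrays labelled nup60 ada2 against wild type 11 rose and 3 fell. Of all genes, 25.1% rose and 26.2% fell in nup60, 22.7% rose and 23.0% fell in ada2, and 36.1% rose and 37.1% fell in the arrays labelled nup60 ada2 against wild type. GAT1, an activator of this set, rose by 0.68 ± 0.07 in nup60 (limma adjusted p = 1.32e-05). In ada2 the allantoinase gene DAL1 rose by 0.92 ± 0.08 and the amidase gene AMD2 by 0.77 ± 0.04, whereas the ammonium permease gene MEP1 fell by 0.68 on the log2 scale (standard error 0.12).

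The chromosomal neighbours of the 8 genes gave a view of the loci in the RefSeq order of genes. Leaving out YOR302W, 15 neighbours were measured, of which 2 rose and 2 fell in ada2 arrays, where 45.7% of all genes passed. SIP4, next to ARG3 and known as an activator of gluconeogenic genes, rose by 1.17 ± 0.09 in ada2 (limma adjusted p = 3.21e-06), by 1.23 ± 0.09 in the arrays labelled nup60 ada2 over nup60, and by 0.99 ± 0.09 in them over ada2, where ARG3 fell. With quantile normalization the last of these was 0.52 (adjusted p = 2.80e-05). GPD2, a glycerol-3-phosphate dehydrogenase gene next to ARG1, fell by 1.08 on the log2 scale in the arrays labelled nup60 ada2 against nup60 (standard error 0.10, limma adjusted p = 5.43e-06), where ARG1 rose. GPD2 was also lower in ada2 (-0.45) and in the arrays labelled nup60 ada2 against wild type (-1.40), where ARG1 was higher. It fell in nup60 (-0.32) and in the arrays labelled nup60 ada2 against ada2 (-0.95), where ARG1 fell too. DIF1, next to CAR2, had the sign of CAR2 in nup60 (0.26), in ada2 (-0.325) and in the arrays labelled nup60 ada2 against nup60 (-0.83). Against ada2 DIF1 fell (-0.25), where CAR2 rose. On either side of CAR1, PEX25 and GDE1 had differences of -0.13 and -0.07 in ada2 and did not pass (adjusted p = 0.0775 and 0.492). GDE1 rose by 0.61 ± 0.08 in the arrays labelled nup60 ada2 over nup60 (limma adjusted p = 7.71e-05). YSC83, next to ARG4, was higher as ARG4 was, in nup60 (0.14) and in ada2 (0.11). The arrays labelled nup60 ada2 had more YSC83 than ada2 (0.105) and wild type (0.22). Against nup60 YSC83 did not pass (0.075, limma adjusted p = 0.102).

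Among 677 other genes whose group means spanned at least 1 on the log2 scale, the profiles most like ARG3 over the 12 arrays were those of TIR3, CMC4, FIT2, WSC4 and VID24, with Pearson correlations of 0.987, 0.942, 0.939, 0.924 and 0.914. TIR3, a cell wall mannoprotein gene, averaged 11.18 in nup60, 13.07 in ada2 and 11.88 in the arrays labelled nup60 ada2, against 11.10 in wild type. The profiles most like CAR1 were those of YNL092W, FBP26, FMP52, YIA6 and RNR2, with correlations of 0.978, 0.975, 0.974, 0.972 and 0.971. RNR2, for a small subunit of ribonucleotide reductase, averaged 14.65 in nup60, 14.33 in ada2 and 14.95 in the arrays labelled nup60 ada2, against 13.89 in wild type. The 12 arrays fall into 4 groups and share their normalization, so these correlations describe mainly the order of 4 means.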

How the data were processed

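RNA of 12 samples was measured on Affymetrix yeast arrays. The deposited intensity values, 1 per probe set and on a linear scale, were made with RMA in Expression Console 1.1 according to what the authors recorded, per the submitters' processing notes. Here log2 was taken of them with no further normalization. The design had assumed log2 values. Gene names came from a pairing table joined by gene identifier to a RefSeq gene table of assembly release 64, used for names and neighbours only. Of 10928 probe sets, 5498 stood for 5449 S. cerevisiae genes, and the probe set with the highest mean was used. The background is the 95th percentile of array means of 1746 S. pombe probe sets.

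All genes were fitted with limma 3.58.1 in R 4.3.3, with 1 mean per group over all 12 arrays (8 residual and 2.58 prior degrees of freedom), and p-values were adjusted by Benjamini-Hochberg over 5449 genes. A gene passed below 0.05. The number of arrays limits the precision. Array medians lay between 11.21 and 11.28. Poly-A spikes were highest on wild-type array 1 (8.89) and array 3 labelled nup60 ada2 (9.06). On arrays 1 and 2 labelled nup60 ada2 they were 7.305 and 7.901, against 6.665 to 6.981 on the remaining arrays. The members, lists and tests were chosen with earlier results of these data known. The genes named were the 8 members, all measured genes of the lists of other arginine genes and of regulators, up to 3 passing genes with the largest difference from each remaining list, the 5 genes most like ARG3 and CAR1, and, added later, neighbours. Replicate numbers did not pair the arrays: 4 of 18 same-numbered pairs had deviations correlated over 0.1, with correlations from -0.726 to 0.367. The lowest were those of wild type with the arrays labelled nup60 ada2, at -0.726 for number 1 and -0.654 for number 3. These pairs hold the arrays with the highest spikes, and the cause of the correlations was not tested. Alternatives covered scaling, dim genes, moderation, weights, probe sets, a replicate block and left-out arrays. Planned promoter motif searches were not run, as no sequence was used here.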

Additional observations from a re-analysis of the deposited data

Results flagged for a closer look

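For ARG3 the loss of NUP60 went in opposite directions with and without ADA2. All 3 arrays labelled nup60 ada2 lay below the ada2 mean, and all 3 nup60 arrays lay above the wild-type mean, and the differences of -2.09 and 0.41 on the log2 scale were -2.50 apart. For CPA1 the loss of ADA2 did so with and without NUP60. All 3 arrays labelled nup60 ada2 lay below the nup60 mean and all 3 ada2 arrays lay above the wild-type mean, with differences of -0.07 and 0.37 that were -0.44 apart. Neither contrast was tested, since both hold the ada2 comparison with which the genes were listed. The CPA1 difference of -0.07 did not pass by itself. The ARG3 call in nup60 against wild type was lost with quantile normalization (0.22, limma adjusted p = 0.121). The arrays labelled nup60 ada2 also differ in URA3 and mating type.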

How the results depend on the processing

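Of 40 differences of the 8 genes (5 comparisons each), 32 kept their direction and their side of the threshold, or for ada2 against wild type moved by less than 1 SD of the replicates, under every alternative run. The exceptions are given beside their results, together with those of CPA1 in nup60 (-0.11, adjusted p = 0.0653), ARG8 in the arrays labelled nup60 ada2 against wild type (-0.12, 0.0872) and ARG8 against nup60 (0.15, 0.03) when wild-type array 1 and array 3 labelled nup60 ada2 were both left out. CAR2 in the arrays labelled nup60 ada2 against wild type, which did not pass, changed sign with quantile normalization (0.006), without both of those arrays (0.003), without array 3 labelled nup60 ada2 (0.052) and without wild-type array 3 (0.009), with -0.081 to 0.052 over single arrays left out. For these changes the cause was not tested, and fewer arrays give larger errors.

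Leaving out each array of a comparison, 6 to 8 of the 8 genes passed in nup60 against wild type, 5 to 7 in the arrays labelled nup60 ada2 against nup60, 8 against ada2, and 6 to 7 against wild type. With the replicate block the counts were 8, 6, 8 and 7, as without it. Among the 75 differences of related genes, 62 kept their call, and those lost with the block were GCN4 in nup60 (adjusted p = 0.0792) and UME6 in ada2 (0.0611). Under quantile normalization ALP1 in the arrays labelled nup60 ada2 against ada2 did not pass (0.04, adjusted p = 0.75).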
